A study of Homo sapiens with 6 samples.

Results

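Amino acid transporter genes were examined in U87, an established human glioblastoma cell line, after knockdown of the long noncoding RNA LINC00152. The genes were taken by symbol alone, as every listed member of the families SLC1, SLC3, SLC7, SLC36, SLC38 and SLC43, which gave 40 of the 27192 symbols in the tables. Of these 40 genes, 23 had enough counts to be tested, among 14078 tested genes in all. Cells of the siLINC00152 group received a combination of 2 siRNAs against LINC00152, and cells of the siGL2 group a nonspecific siRNA, each in 2 rounds of transfection 24 hours apart. All cells were collected 24 hours after the last round, and each group held 3 libraries, A, B and C, of polyA RNA. The study asked how the transcriptome of U87 cells differs once LINC00152 is reduced. The siRNAs were used as a pair against a single control siRNA, so effects of LINC00152 loss and of either siRNA on other transcripts cannot be told apart. Nothing in the labels tells whether A, B and C came from separate cultures, and every p-value here rests on the spread among these libraries alone, which may be technical.

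Amino acids cross membranes on carriers of several unrelated families. The SLC1 family takes up glutamate with sodium or exchanges small neutral amino acids, and the SLC38 family takes up small neutral amino acids and glutamine with sodium. Most SLC7 proteins are light chains that reach the cell surface only in a disulfide-linked pair with an SLC3 heavy chain, and some members of SLC36 and SLC38 work at the lysosome, where they release or sense amino acids upstream of the growth kinase complex mTORC1. In the brain the glutamate carriers of astrocytes clear the transmitter from synapses, and in gliomas the cystine/glutamate exchanger SLC7A11 and the leucine carrier SLC7A5 are much studied.

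The libraries held 41963120 to 46234763 counts. LINC00152 had 109 to 114 counts in the siLINC00152 libraries, against 608 to 776 in the siGL2 libraries, a log2 fold change of −2.51 ± 0.09 (SE; edgeR adjusted p = 4.55e-15). The 40 transporter genes together took 0.2096% to 0.2129% of all counts in siLINC00152 libraries and 0.2056% to 0.2195% in siGL2 libraries, and these ranges overlapped. The overlap came from siGL2 replicate A (0.2195%), while siGL2 replicates B and C held 0.2063% and 0.2056%. The glioblastoma markers VIM and CD44 were abundant in every library, while the astrocyte markers GFAP and S100B had at most 12 and 1 counts and AQP4 was at 0 in all 6. Of 7 glioblastoma markers all had counts, but SOX2 had only 0 to 3 counts a library and OLIG2 15 to 28. Their sum, mostly VIM, was 8937 to 9235 CPM in siLINC00152 libraries, against 11402 to 12019 CPM in siGL2 libraries. Of 6 astrocyte markers 5 had counts, and their sum, mostly GJA1, was 200.4 to 211 CPM against 425 to 430.1 CPM in siGL2. The 5 neuronal markers, mostly SNAP25, summed to 52.3 to 58.0 CPM in siLINC00152 and 76.4 to 78.8 CPM in siGL2, and the 5 fibroblast and pericyte markers, mostly COL1A1, to 723 to 821 CPM in siLINC00152 and 445 to 498 CPM in siGL2. Among the fibroblast and pericyte markers LUM went the other way, with 66 to 69 counts in siLINC00152 libraries against 257 to 302 in siGL2 libraries, and RGS5 had 213 to 239 counts in siLINC00152 against 243 to 279 in siGL2. Oligodendrocyte markers (4 in the list, MOG and MAG at 0) summed to at most 0.619 CPM in siLINC00152 and 0.655 CPM in siGL2, those of microglia and leukocytes (5, with AIF1, C1QA and P2RY12 at 0) to at most 0.0714 and 0.115 CPM, and the 4 endothelial markers to 1.81 to 1.87 and 1.92 to 2.60 CPM. The part of these marker differences in the transporter results was not tested.

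The transporter genes moved in both directions, and by less than 2-fold. At a Benjamini-Hochberg adjusted p under 0.05 (edgeR quasi-likelihood test over all tested genes), 11 of the 23 tested transporters were higher and 6 lower in siLINC00152 than in siGL2, and 6 did not pass. Of all tested genes, 32.2% were higher and 32.2% lower, together 64.3%, so passing the test was common in this comparison. The median log2 fold change of the 23 was 0.18, beside 0.00 (−0.0011) over all tested genes. At least 1.5-fold changes were called in 7 of the 23 (SLC7A6, SLC36A1, SLC38A9, SLC38A2, SLC43A3, SLC7A1 and SLC43A1), against 20.0% of all tested genes, and at least 2-fold changes in 0 of the 23, against 6.61%. The siLINC00152 and siGL2 libraries did not overlap for 15 of the 23, against 67.7% of all tested genes. With library size in place of TMM as the scale, which moved the median of all genes by −0.07, 7 transporters were higher and 7 lower. Without siLINC00152 replicate B, 7 of the 23 were higher and 6 lower. SLC1A1, SLC1A4, SLC36A4 and SLC7A5 were the rises lost in both. Counts are relative to the library total, and in bulk RNA fewer cells of a kind and less RNA per cell cannot be told apart.

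**Figure D1:**
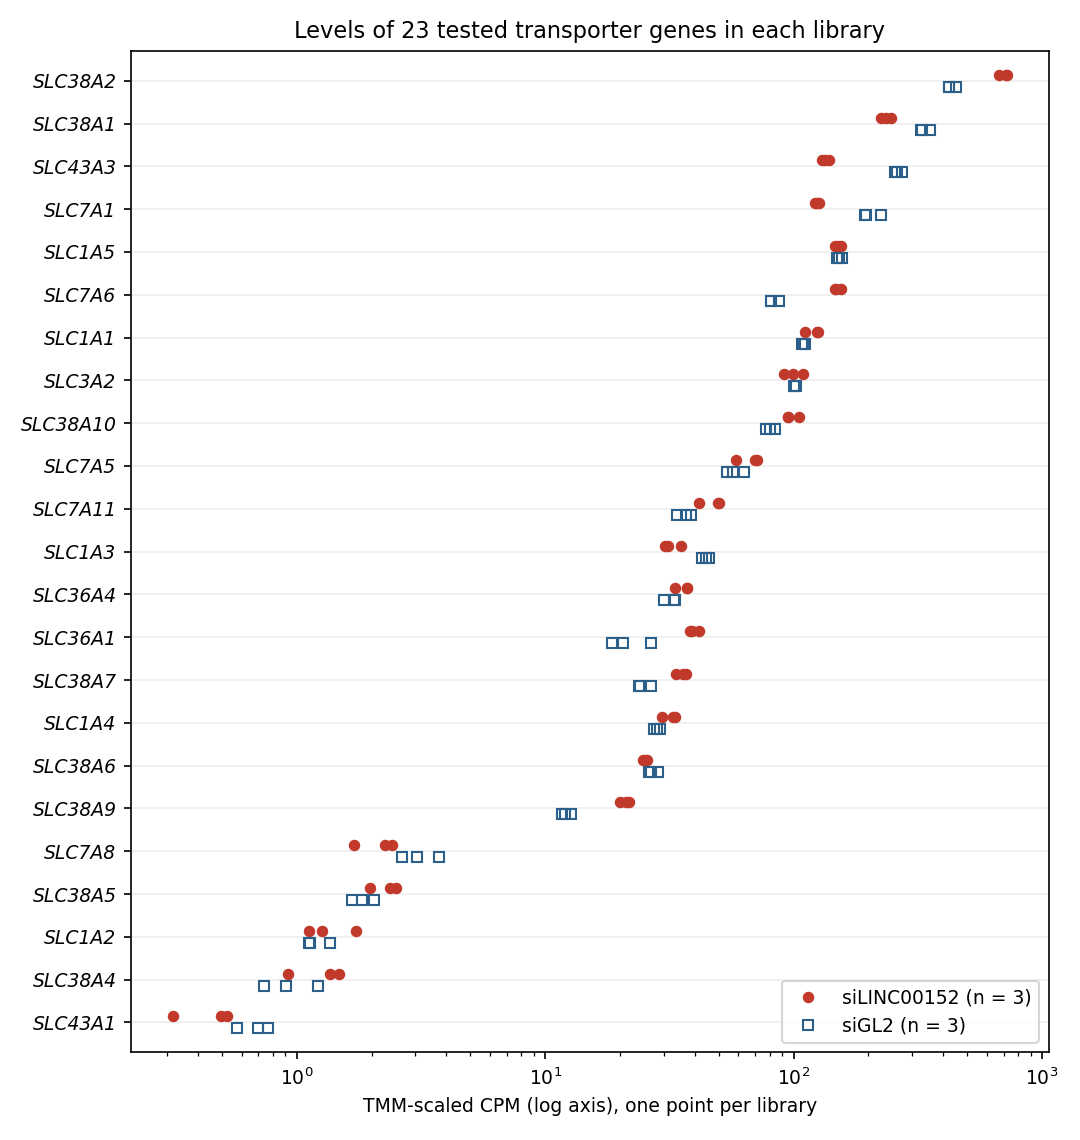
TMM-scaled CPM (horizontal log axis) of the 23 tested transporter genes in each library, with filled red circles for the 3 siLINC00152 libraries and open blue squares for the 3 siGL2 libraries. SLC38A2 is the highest in both groups, at 669 to 722 CPM in siLINC00152 and 421 to 450 CPM in siGL2, and 5 genes lie under 10 CPM.

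**Figure D2:**
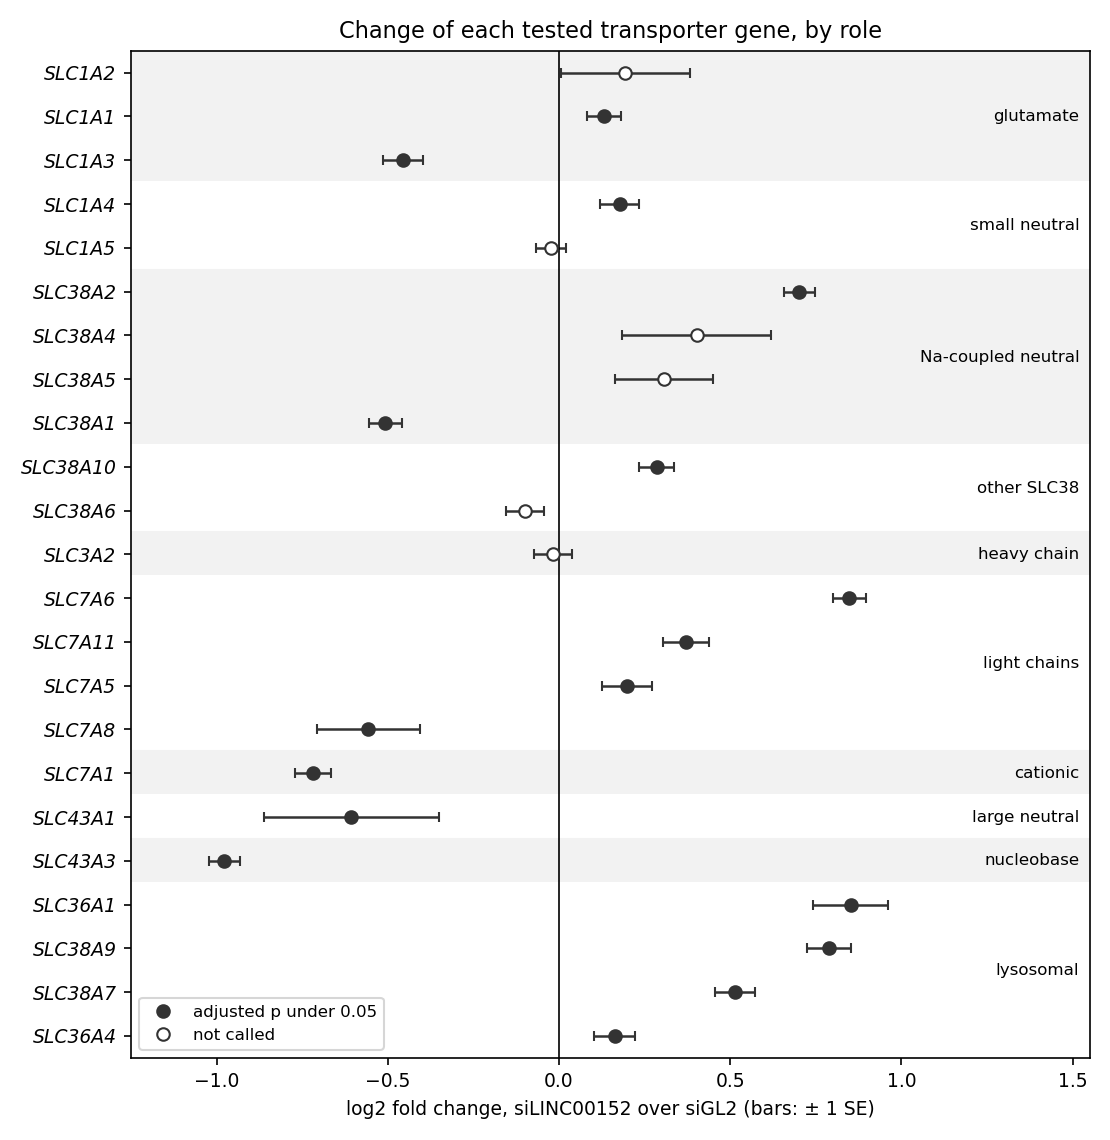
Log2 fold change of siLINC00152 over siGL2 (horizontal axis, bars ± 1 SE) for the 23 tested transporter genes, grouped by role, with filled points at an adjusted p under 0.05. Values run from −0.98 for SLC43A3 to 0.85 for SLC36A1 and SLC7A6, and all 4 lysosomal carriers lie above 0.

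The sodium-coupled neutral amino acid carriers SLC38A2 and SLC38A1 moved in opposite directions. SLC38A2 (SNAT2), the carrier whose gene is known to respond to amino acid starvation, rose, and SLC38A1 (SNAT1), a glutamine carrier prominent in neurons and many tumour lines, fell. SLC38A2 had 669, 714 and 722 CPM in siLINC00152 libraries A, B and C, against 449.6, 424 and 421 CPM in siGL2 libraries. All 3 siLINC00152 libraries lay above all 3 siGL2 libraries. Its log2 fold change was 0.70 ± 0.05 (SE; edgeR adjusted p = 3.28e-11), or 1.63-fold. SLC38A1 had 225, 248 and 235 CPM in siLINC00152 libraries and 353, 325 and 328 CPM in siGL2 libraries. The groups did not overlap here either, with every siLINC00152 library below every siGL2 library. The log2 fold change of SLC38A1 was −0.51 ± 0.05 (SE; edgeR adjusted p = 9.81e-09).

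SLC38A1 and SLC38A2 are neighbours on the minus strand of chromosome 12 (hg38, GENCODE 29 genes). SLC38A1 (ENSG00000111371.15) spans chr12:46183063-46270017 and SLC38A2 (ENSG00000134294.13) chr12:46358189-46372867, with 88.2 kb between them. SLC38A4 (chr12:46764761-46832408), the third of the cluster, lies 391.9 kb beyond SLC38A2. The 250 bases before each start are shown because this pair of neighbours moved in opposite directions. They come from RefSeq (GRCh38.p14, minus strand, 5′ to 3′), which lists 1 start for SLC38A2 and 2 for SLC38A1. These starts differ from the ends of the GENCODE spans above. Both SLC38A1 stretches lie inside the GENCODE span of SLC38A1, and the SLC38A2 stretch lies partly inside that of SLC38A2. The stretches hold no whole copy of the 3 motifs searched, so no base is in capitals. A site that spans the first listed start of SLC38A1 runs past the bases shown and is printed further below. For SLC38A2 nothing beyond 50 bases after its start was searched.
SLC38A2: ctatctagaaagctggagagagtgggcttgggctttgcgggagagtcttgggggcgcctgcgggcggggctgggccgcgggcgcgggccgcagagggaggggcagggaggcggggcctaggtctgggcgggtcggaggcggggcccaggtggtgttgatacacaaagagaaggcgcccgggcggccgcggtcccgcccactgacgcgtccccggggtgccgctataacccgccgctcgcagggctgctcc
SLC38A1, first listed start: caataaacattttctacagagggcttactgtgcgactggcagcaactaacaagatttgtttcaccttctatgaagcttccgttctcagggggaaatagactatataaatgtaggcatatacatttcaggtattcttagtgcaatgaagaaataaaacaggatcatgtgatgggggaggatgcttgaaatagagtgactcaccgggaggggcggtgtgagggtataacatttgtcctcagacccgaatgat
SLC38A1, second listed start: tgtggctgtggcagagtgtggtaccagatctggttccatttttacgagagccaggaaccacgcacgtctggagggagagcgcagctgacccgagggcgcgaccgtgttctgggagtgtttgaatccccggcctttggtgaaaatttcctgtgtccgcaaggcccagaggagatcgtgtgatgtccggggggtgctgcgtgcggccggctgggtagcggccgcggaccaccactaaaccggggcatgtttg
The SLC38A2 stretch (chr12:46372774-46373023) was 73.6% G and C. The SLC38A1 stretches (chr12:46266517-46266766 and chr12:46267988-46268237) were 42.4% and 61.6% G and C, and the median over all 35116 windows was 58.0%.

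The other SLC38 genes were lower in abundance. SLC38A10, a carrier of glutamine, glutamate and aspartate expressed in brain, rose, with 105, 94.6 and 94.7 CPM in siLINC00152 libraries against 83.8, 80.5 and 77.6 CPM in siGL2 libraries. The groups did not overlap, with a log2 fold change of 0.28 ± 0.05 (SE; edgeR adjusted p = 6.26e-05). SLC38A6 had 24.8 to 25.6 CPM in siLINC00152 and 26.1 to 28.5 CPM in siGL2, and did not pass (log2 fold change −0.10, 95% confidence interval −0.22 to 0.02, edgeR adjusted p = 0.128). The groups of SLC38A6 did not overlap, and with library size alone it passed at −0.17 (edgeR adjusted p = 0.0135). SLC38A5 (SNAT5), a carrier of the glutamine-preferring system N, and SLC38A4 (SNAT4) stood at 1.97 to 2.51 and 0.925 to 1.48 CPM in siLINC00152, against 1.67 to 2.05 and 0.740 to 1.22 CPM in siGL2. Both overlapped between groups and did not pass, with log2 fold changes of 0.31 ± 0.14 and 0.40 ± 0.22 (SE; edgeR adjusted p = 0.0682 and 0.111). SLC38A5 passed without siGL2 replicate A (0.39) and without siLINC00152 replicate C (0.40), and SLC38A4 without siGL2 replicate A (0.62) and without siLINC00152 replicate A (0.58).

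The tested SLC36 and SLC38 carriers known to work at the lysosome were higher after knockdown, 4 of 4, beside 32.2% of all tested genes. SLC36A1 (PAT1) exports small neutral amino acids from the lysosome with protons, SLC38A7 (SNAT7) exports glutamine, SLC38A9 senses arginine for mTORC1 and SLC36A4 (PAT4) is a high-affinity proline and tryptophan carrier. SLC36A1 had 41.6, 38.8 and 38.3 CPM in siLINC00152 libraries and 26.7, 20.6 and 18.6 CPM in siGL2 libraries. The groups did not overlap, and siGL2 replicate A stood above the other two siGL2 libraries. Its log2 fold change was 0.85 ± 0.11 (SE; edgeR adjusted p = 6.11e-05), and 1.02 without siGL2 replicate A. SLC38A9 had 21.7, 19.9 and 21.1 CPM in siLINC00152 against 11.98, 12.7 and 11.7 CPM in siGL2, again without overlap. It rose by 0.79 ± 0.06 on the log2 scale (SE; edgeR adjusted p = 1.02e-09). SLC38A7 had 37.0, 33.5 and 36.0 CPM in siLINC00152 against 26.7, 24.0 and 23.9 CPM in siGL2, with every siLINC00152 library above every siGL2 library. This was a log2 fold change of 0.51 ± 0.06 (SE; edgeR adjusted p = 2.23e-07).

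SLC36A4 showed the smallest difference of the lysosomal carriers. It had 33.2, 37.3 and 37.1 CPM in siLINC00152 libraries and 32.9, 30.02 and 33.2 CPM in siGL2 libraries, and siLINC00152 replicate A lay within the siGL2 range. The log2 fold change was 0.16 ± 0.06 (SE; edgeR adjusted p = 0.0216). It did not pass without siGL2 replicate B (0.11), siLINC00152 replicate B (0.13) or siLINC00152 replicate C (0.14), nor with library size alone (0.10). Per length, the 4 lysosomal genes summed to 16.8 ± 0.337 FPKM in siLINC00152 and 11.4 ± 0.879 FPKM in siGL2 (SD, n = 3; exact two-sided permutation p = 0.1, the smallest that 3 against 3 allows). FPKM here is the TMM-scaled CPM divided by the summed exon length of the gene in kb. SLC36A1 lies at chr5:151437046-151492381, SLC38A9 at chr5:55625845-55773194, SLC38A7 at chr16:58665109-58685104 and SLC36A4 at chr11:93144171-93197964.

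Among the light chains of the heterodimeric carriers, SLC7A6 rose most, and their shared heavy chain gene SLC3A2 did not pass the test. SLC7A6 (y+LAT2) exchanges arginine for glutamine with sodium. It had 156, 147 and 148 CPM in siLINC00152 libraries and 87.5, 81.3 and 81.4 CPM in siGL2 libraries. The groups lay far apart, and the log2 fold change was 0.85 ± 0.05 (SE; edgeR adjusted p = 3.42e-12). SLC7A6 (chr16:68264516-68301823) shares 48.8% of its 75-base stretches, mainly with SLC7A6OS, which is transcribed the other way, and whether reads were counted by strand is not stated in any label. SLC7A6OS itself stood at 14.8 ± 0.248 CPM in siLINC00152 and 13.4 ± 0.823 CPM in siGL2 (SD, n = 3), a log2 fold change of 0.14 ± 0.07 that did not pass (edgeR adjusted p = 0.0732).

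SLC7A11 (xCT), the light chain of the cystine/glutamate exchanger that feeds glutathione synthesis, was also higher. It had 49.5, 50.3 and 41.7 CPM in siLINC00152 libraries and 36.8, 33.9 and 38.6 CPM in siGL2 libraries, with no overlap between groups. The log2 fold change of SLC7A11 was 0.37 ± 0.07 (SE; edgeR adjusted p = 7.77e-05; chr4:138164097-138242349). SLC7A5 (LAT1), the light chain that exchanges leucine and other large neutral amino acids for glutamine, had 71.2, 70.2 and 58.6 CPM in siLINC00152 and 63.3, 54.2 and 56.8 CPM in siGL2. Here siLINC00152 replicate C lay within the siGL2 range. Its rise of 0.20 ± 0.07 (SE; edgeR adjusted p = 0.0242; chr16:87830023-87869488) was not called without siGL2 replicate B (0.15), siGL2 replicate C (0.18), siLINC00152 replicate A (0.15) or siLINC00152 replicate B (0.16), nor with library size alone (0.13). SLC7A8 (LAT2), a second large neutral light chain, was scarce and fell, with 1.704, 2.26 and 2.42 CPM in siLINC00152 against 3.73, 3.06 and 2.64 CPM in siGL2. The SLC7A8 groups did not overlap, and the log2 fold change was −0.56 ± 0.15 (SE; edgeR adjusted p = 0.00298).

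The heavy chain SLC3A2, known as CD98 heavy chain, had 109, 99.5 and 91.2 CPM in siLINC00152 libraries and 102, 99.9 and 101 CPM in siGL2 libraries. The siLINC00152 libraries spread to both sides of the siGL2 libraries. The log2 fold change was −0.02 ± 0.05 (SE) with a 95% confidence interval of −0.13 to 0.10, and it did not pass (edgeR adjusted p = 0.798; chr11:62856102-62888875). Without siLINC00152 replicate C the value was 0.04. Per length, the 4 tested light chains together stood at 2.03 ± 0.0695 times SLC3A2 in siLINC00152 and 1.41 ± 0.0682 times SLC3A2 in siGL2 (SD, n = 3). This ratio was 1.95, 2.07 and 2.08 in siLINC00152 libraries against 1.49, 1.36 and 1.39 in siGL2 libraries, without overlap (exact two-sided permutation p = 0.1, the smallest possible). Its height depends on the length used: per longest transcript it was 0.979 ± 0.0352 in siLINC00152 and 0.672 ± 0.0323 in siGL2 (SD, n = 3).

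The glutamate carriers SLC1A1 and SLC1A3 moved apart. SLC1A3 (EAAT1, GLAST), the carrier of astrocytes and radial glia, had 31.2, 30.4 and 35.1 CPM in siLINC00152 libraries and 45.5, 44.2 and 42.9 CPM in siGL2 libraries. Every siLINC00152 library lay below every siGL2 library, and the log2 fold change was −0.46 ± 0.06 (SE; edgeR adjusted p = 7.33e-07; chr5:36606355-36688334). SLC1A1 (EAAT3), which also takes up cysteine, had 111.1, 124 and 125 CPM in siLINC00152 and 109, 108 and 111.3 CPM in siGL2. siLINC00152 replicate A lay within the siGL2 range, and the other two siLINC00152 libraries lay above it. The log2 fold change of SLC1A1 was 0.13 ± 0.05 (SE; edgeR adjusted p = 0.0255; chr9:4490444-4587469), and it did not pass without siGL2 replicate B (0.12), siLINC00152 replicate B (0.11) or siLINC00152 replicate C (0.10), nor with library size alone (0.06). SLC1A2 (EAAT2, GLT-1), the main carrier of adult astrocytes, had only 46 to 73 counts in siLINC00152 libraries and 49 to 59 in siGL2 libraries. It did not pass, at a log2 fold change of 0.19 (95% confidence interval −0.20 to 0.59, edgeR adjusted p = 0.383), which was −0.0089 without siLINC00152 replicate B.

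The neutral exchangers of the same family differed little. SLC1A5 (ASCT2), the glutamine exchanger of proliferating cells, had 155, 151 and 147 CPM in siLINC00152 and 157, 153 and 149.8 CPM in siGL2, with overlapping groups. It did not pass, and the 95% confidence interval of its log2 fold change (−0.02) ran from −0.12 to 0.07 (edgeR adjusted p = 0.662). A share of 20.3% of the 75-base stretches of SLC1A5 is also found in AC008622.2, which runs the other way. SLC1A4 (ASCT1), which exchanges serine and alanine, had 32.7, 33.2 and 29.6 CPM in siLINC00152 libraries and 28.2, 29.005 and 27.4 CPM in siGL2 libraries. The groups did not overlap and the log2 fold change was 0.18 ± 0.06 (SE; edgeR adjusted p = 0.0108), which did not pass without siLINC00152 replicate B (0.15) or with library size alone (0.11).

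SLC7A1 (CAT1), the main carrier of arginine, lysine and ornithine into most cells, fell. It had 127, 124 and 121 CPM in siLINC00152 libraries and 224, 196 and 194 CPM in siGL2 libraries. The siGL2 libraries all lay above the siLINC00152 libraries, with siGL2 replicate A the highest. The fall had a log2 fold change of −0.72 ± 0.05 (SE; edgeR adjusted p = 2.19e-10), or 1.65-fold lower, and SLC7A1 lies on the minus strand at chr13:29509410-29595688. It was the only gene of its cationic subfamily (SLC7A1, SLC7A2, SLC7A3, SLC7A4 and SLC7A14) with enough counts to be tested.

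The largest fall was in SLC43A3, which despite its family is known as a carrier of purine nucleobases. It had 134, 130 and 138 CPM in siLINC00152 libraries, against 274, 261 and 257 CPM in siGL2 libraries. The libraries of each group lay close together and the groups far apart, and the log2 fold change was −0.98 ± 0.05 (SE; edgeR adjusted p = 1.67e-13), or 1.97-fold lower. With library size alone it was −1.05. SLC43A3 lies at chr11:57406954-57427580, and 21.8% of its 75-base stretches also occur in AP000781.2, a gene annotated over it on the same strand. SLC43A1 (LAT3), a facilitated carrier of large neutral amino acids, was at 0.317, 0.524 and 0.493 CPM in siLINC00152 against 0.576, 0.764 and 0.698 CPM in siGL2, from 13 to 33 counts a library. Its log2 fold change of −0.61 ± 0.26 (SE; edgeR adjusted p = 0.0442) did not pass with DESeq2 (adjusted p = 0.135), without a filter on low counts (−0.61), or without siGL2 replicate B (−0.52), siGL2 replicate C (−0.59), siLINC00152 replicate A (−0.42) or siLINC00152 replicate C (−0.69).

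The make-up of the transporter pool differed between groups, while its summed level overlapped. Per length, the 23 tested genes summed to 355 ± 2.44 FPKM in siLINC00152 and 344 ± 12.1 FPKM in siGL2 (SD, n = 3), and the groups overlapped (exact two-sided permutation p = 0.4). The overlap came from siGL2 replicate A alone, at 357.4 FPKM. siGL2 replicates B and C stood at 337.1 and 336.0 FPKM, below the 352.7 to 357.3 FPKM of the siLINC00152 libraries. SLC38A2 held 29.97 ± 1.11% of this sum in siLINC00152 and 19.02 ± 0.0530% in siGL2 (SD, n = 3). SLC43A3 held 8.37 ± 0.310% in siLINC00152 and 17.0 ± 0.133% in siGL2, SLC38A1 held 6.65 ± 0.268% and 9.75 ± 0.121%, and SLC7A1 4.55 ± 0.103% and 7.73 ± 0.362%, with siLINC00152 first in each pair. SLC7A6 held 5.58 ± 0.217% in siLINC00152 and 3.20 ± 0.0243% in siGL2. Each of these 5 shares was without overlap between groups (exact two-sided permutation p = 0.1, the smallest possible), as were 14 of the 23 shares in all. In level, 67.7% of all tested genes were without overlap, so such separation was common in this comparison.

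In the order of levels per summed exon length among the 23 genes, SLC38A2 came first in both groups, at 106 ± 4.31 FPKM in siLINC00152 and 65.4 ± 2.39 FPKM in siGL2 (SD, n = 3). In siGL2 it was followed by SLC43A3 (58.5 ± 1.94 FPKM), SLC1A5 (46.03 ± 1.13), SLC38A1 (33.5 ± 1.54), SLC1A1 (27.4 ± 0.368) and SLC7A1 (26.6 ± 2.20 FPKM). SLC1A1 and SLC7A1, neighbours in that order, did not differ beyond their spread. In siLINC00152 the order after SLC38A2 was SLC1A5 (45.3 ± 1.31 FPKM), SLC1A1 (30.05 ± 1.96), SLC43A3 (29.7 ± 0.950), SLC38A1 (23.6 ± 1.11) and SLC7A6 (19.8 ± 0.658 FPKM). There SLC1A1 and SLC43A3 did not differ beyond their spread, nor did SLC7A6 and SLC3A2 (19.3 ± 1.69 FPKM), the next in order. SLC43A3 thus ranked 4 in siLINC00152 and 2 in siGL2. SLC7A6, SLC43A3 and SLC1A5 share 48.8%, 21.8% and 20.3% of their 75-base stretches with other genes. Their ranks, shares and ratios may depend on how such reads were counted, which was not tested. Per longest transcript the order turned: SLC43A3 ranked 3 in siLINC00152 (51.2 ± 1.64 FPKM) and 1 in siGL2 (101 ± 3.35 FPKM), and SLC38A2 ranked 1 in siLINC00152 (144 ± 5.82 FPKM) and 2 in siGL2 (88.3 ± 3.22 FPKM; SD, n = 3).

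**Figure D3:**
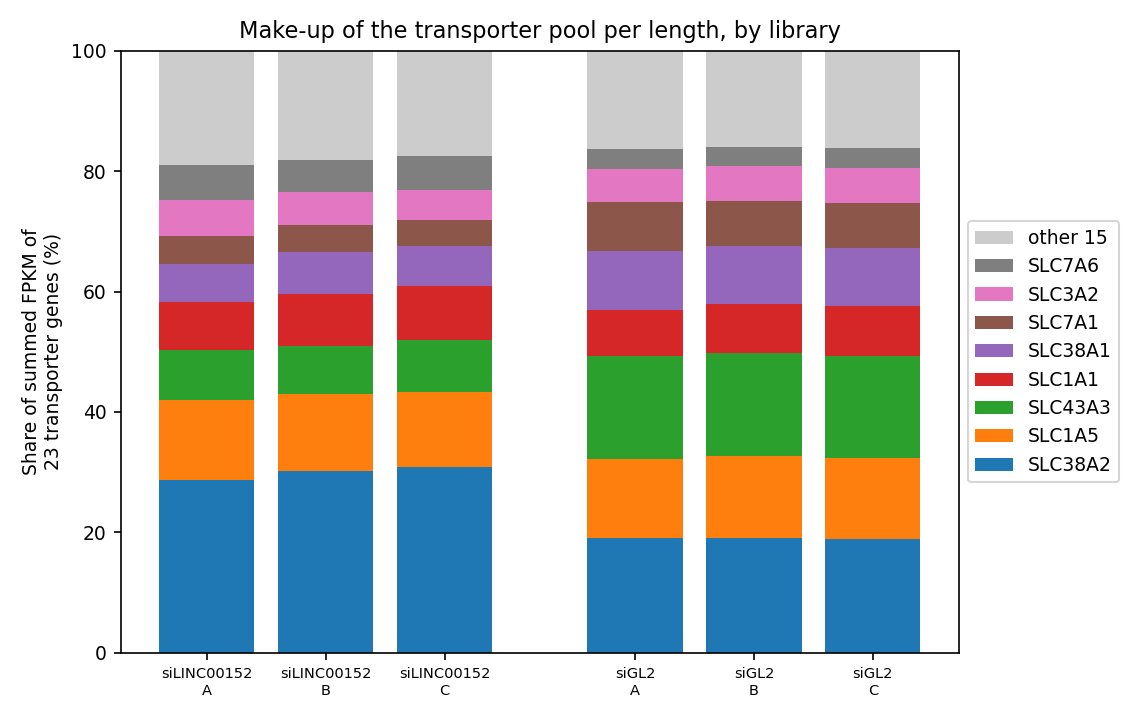
Share of the summed FPKM of the 23 tested transporter genes (vertical axis, %) taken by the 8 with the largest mean share and by the other 15, in each of the 3 siLINC00152 libraries (left) and 3 siGL2 libraries (right). SLC38A2 takes 28.7% to 30.9% in siLINC00152 and 18.96% to 19.1% in siGL2, and SLC43A3 takes 8.05% to 8.66% in siLINC00152 and 16.9% to 17.2% in siGL2.

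Ratios within a library, which do not depend on the scaling between libraries, separated the groups for each of 5 pairs computed. SLC38A2 stood at 4.503, 4.37 and 4.66 times SLC38A1 per length in siLINC00152 libraries, against 1.93, 1.98 and 1.94 times in siGL2 libraries. SLC1A1 stood at 5.59, 6.41 and 5.58 times SLC1A3 in siLINC00152 and 3.76, 3.84 and 4.07 times in siGL2. The balance within each of these 2 pairs thus lay further toward SLC38A2 and SLC1A1 after knockdown in every library. SLC7A6 stood at 1.42 ± 0.143 times SLC7A5 in siLINC00152 and 0.900 ± 0.0372 times in siGL2, and SLC7A11 at 0.348 ± 0.00571 times SLC7A5 in siLINC00152 and 0.310 ± 0.0241 times in siGL2 (SD, n = 3). No ratio overlapped between groups, and each had an exact two-sided permutation p of 0.1 (0.1 also after Benjamini-Hochberg adjustment over the 5), the smallest that 3 against 3 libraries allow. The ratios were not planned, and they were formed from genes whose changes are given above. Their separation therefore restates those changes and is not separate evidence.

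**Figure D4:**
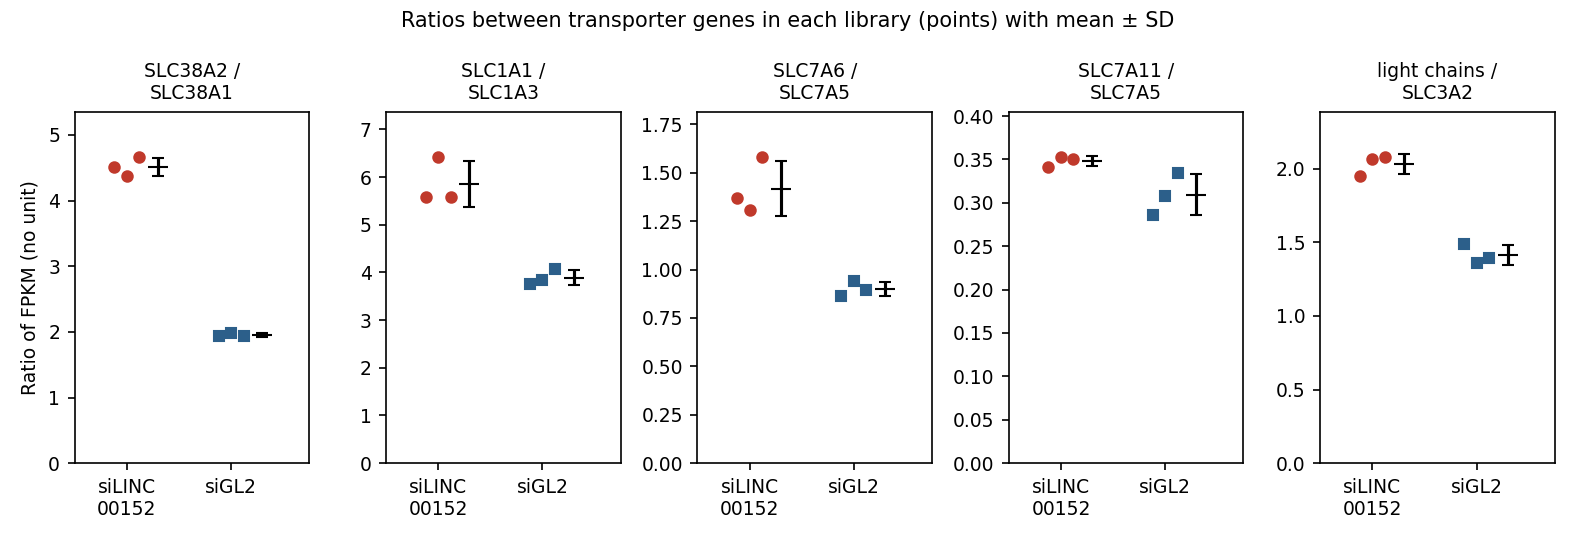
Ratio of FPKM between transporter genes (vertical axes, from 0) in each library, with siLINC00152 as red circles on the left and siGL2 as blue squares on the right of each panel, and the mean ± SD of 3 libraries beside them. The ratio of SLC38A2 to SLC38A1 averages 4.51 in siLINC00152 and 1.95 in siGL2, and the ratio of summed light chains to SLC3A2 averages 2.03 in siLINC00152 and 1.41 in siGL2.

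The other 17 genes were at or near 0. SLC7A4 had 4 to 8 counts in siLINC00152 libraries and 7 to 10 in siGL2 libraries. SLC7A7, a light chain of SLC3A2 in epithelia and macrophages, had 2 to 4 counts in siLINC00152 and 2 to 14 in siGL2, and the renal heavy chain SLC3A1 had 2 to 3 in siLINC00152 and 5 to 10 in siGL2. These genes did not pass the filter on low counts, and SLC3A1 shares 51.2% of its 75-base stretches, mainly with PREPL. Where another setting let SLC7A7 through, it was called lower without a filter (log2 fold change −1.62 ± 0.60, SE; edgeR adjusted p = 0.0167), without siGL2 replicate A (−2.07) and without siLINC00152 replicate B (−2.01), and did not pass without siLINC00152 replicate A (−1.47) or siLINC00152 replicate C (−1.44). SLC38A3 (SNAT3) had 1 to 8 counts in siLINC00152 and 0 to 2 in siGL2, SLC43A2 (LAT4) had 1 to 3 and 0 to 3, the light chain SLC7A9 0 to 1 and 1 to 3, and SLC38A8 0 to 1 and 0 to 3, with siLINC00152 first in each pair. SLC7A14, SLC1A6, SLC36A2 and SLC7A2 had 1 or 2 counts over all 6 libraries. SLC1A7, SLC36A3, SLC38A11, SLC7A3, SLC7A10 and SLC7A13 had 0 counts in all 6, which allows up to 3 counts, or 0.0649 to 0.0715 CPM, in a library, counting error only.

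Short sequence motifs linked to amino acid and stress responses were looked up in the RefSeq promoter windows, 250 bases before to 50 after each listed start. Windows were at hand for 20 of the 23 tested transporters (37 windows, since a gene may have several starts, some of which overlap). SLC1A2, SLC7A11 and SLC43A3 were not searched. The core of the C/EBP-ATF response element, TGATGNAA on either strand, is the site through which ATF4 acts on amino acid response genes. It occurred in 6 of 37 transporter windows (16.2%) and in 3.62% of all 35116 windows. The SLC38A1 site spans the first of its listed starts. The 6 genes went different ways, with SLC38A1, SLC7A1 and SLC1A3 lower, SLC1A4 higher and SLC3A2 and SLC1A5 not passing. The stretches are shown because these 6 genes share the motif and not the direction, with the motif or its reverse complement in capitals.
SLC38A1: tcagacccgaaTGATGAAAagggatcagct, chr12:46266502-46266531, minus strand
SLC7A1: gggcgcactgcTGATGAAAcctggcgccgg, chr13:29595663-29595692, minus strand
SLC1A3: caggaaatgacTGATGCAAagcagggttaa, chr5:36596357-36596386, plus strand
SLC1A4: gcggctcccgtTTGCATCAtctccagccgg, chr2:64989381-64989410, plus strand
SLC3A2: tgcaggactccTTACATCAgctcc, chr11:62881725-62881748, plus strand
SLC1A5: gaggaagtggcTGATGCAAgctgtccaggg, chr19:46784893-46784922, minus strand

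The E-box CACGTG, which reads the same on both strands and is bound by MYC and by the lysosomal gene regulator TFEB, occurred in 7 of 37 transporter windows (18.9%) and in 7.26% of all windows. The genes were SLC36A1, SLC38A7 and SLC7A5, which were higher, SLC7A8 and SLC43A1, which were lower, and SLC1A5 and SLC38A5, which did not pass. SLC38A9 and SLC36A4, lysosomal carriers that were also higher, had no E-box in their windows. The stretches of SLC36A1 and SLC38A7, the lysosomal carriers with the motif, are shown with the E-box in capitals.
SLC36A1, first site: gctcaagggagCACGTGacctcggcctctg, chr5:151447549-151447578, plus strand
SLC36A1, second site: ggcggtgggatCACGTGatgaggtccggaa, chr5:151447584-151447613, plus strand
SLC38A7: tgatgcatgctCACGTGtctccgcagccgg, chr16:58684738-58684767, minus strand
The antioxidant response element core TGACNNNGC on either strand, bound by NRF2, occurred in 6 of 37 windows (16.2%), near the 13.3% of all windows. Its genes were SLC7A5 and SLC7A6, which were higher, SLC1A3 and SLC7A1, which were lower, and SLC3A2 and SLC1A5, which did not pass. None of the 21 sites found overlapped a site of another motif. A match in these letters is a description of sequence and not of binding.

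Amino acid carriers of other families included a larger rise than any of the tested transporters above. Of 29 listed, 16 were tested, of which 7 rose and 3 fell. SLC6A6, the taurine carrier, stood at 762 ± 25.7 CPM in siLINC00152 and 200 ± 17.7 CPM in siGL2 (SD, n = 3), a log2 fold change of 1.93 ± 0.06 (SE; edgeR adjusted p = 1.52e-16). SLC6A9, the glycine carrier GLYT1, rose by 1.39 ± 0.11 on the log2 scale at 5.76 ± 0.308 CPM in siLINC00152 and 2.20 ± 0.172 CPM in siGL2. SLC15A4, a lysosomal carrier of histidine and peptides, rose by 0.49 ± 0.05. CTNS, also a lysosomal carrier, rose by 0.35 ± 0.06 (edgeR adjusted p = 1.79e-05), at 29.1 ± 1.48 CPM in siLINC00152 and 22.8 ± 0.375 CPM in siGL2 (SD, n = 3). The lysosomal carriers PQLC2 (0.15 ± 0.07, edgeR adjusted p = 0.0600) and SLC15A3 (−0.28 ± 0.14, edgeR adjusted p = 0.0913) did not pass. SLC25A29, a mitochondrial carrier of basic amino acids, fell by 0.72 ± 0.07. The median log2 fold change of this list was 0.12.

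Genes of the integrated stress response, through which cells sense missing amino acids, went both ways. Of 28 tested members, 10 rose and 9 fell, with a median log2 fold change of 0.02. ATF4, its central transcription factor, fell by 0.25 ± 0.05 on the log2 scale (SE; edgeR adjusted p = 6.72e-05), at 118 ± 2.68 CPM in siLINC00152 and 141 ± 5.26 CPM in siGL2 (SD, n = 3). The serine synthesis enzyme gene PHGDH (−2.04 ± 0.06) and the mitochondrial folate enzyme gene MTHFD2 (−1.305 ± 0.05) were lower, and the hormone gene STC2 (0.80 ± 0.05) and the stress kinase gene EIF2AK3 (0.82 ± 0.05) were higher. ASNS, asparagine synthetase, stood at 28.6 ± 0.706 CPM in siLINC00152 and 28.4 ± 0.948 CPM in siGL2 (SD, n = 3; log2 fold change 0.01 ± 0.05, edgeR adjusted p = 0.938). Genes annotated elsewhere or over them share 38.7% of the 75-base stretches of ASNS, 25.6% of those of MTHFD2 and 13.1% of those of EIF2AK3.

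Of 39 tested genes of amino acid sensing upstream of mTORC1, 18 rose and 12 fell, with a median log2 fold change of 0.12. The arginine sensor gene CASTOR1 (listed as GATSL3) rose by 2.31 ± 0.11 on the log2 scale (SE), at 7.13 ± 0.173 CPM in siLINC00152 and 1.44 ± 0.133 CPM in siGL2 (SD, n = 3; edgeR adjusted p = 2.86e-13). The related CASTOR2 (listed as GATSL2) went the other way and fell by 0.69 ± 0.08. It stood at 5.65 ± 0.391 CPM in siLINC00152 and 9.13 ± 0.315 CPM in siGL2 (SD, n = 3; edgeR adjusted p = 3.31e-07). FNIP2, a partner of folliculin, rose by 1.17 ± 0.06 and the leucine sensor family gene SESN1 by 1.16 ± 0.07. RHEB, the GTPase that activates mTORC1, fell by 0.79 ± 0.05.

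Enzymes that use the carried amino acids were mixed as well. Of 18 glutamine and glutamate enzymes, 5 rose and 9 fell, with a median log2 fold change of −0.11. GLUL, glutamine synthetase, fell by 1.45 ± 0.06 (SE; edgeR adjusted p = 6.29e-14), to 8.27 ± 0.0728 CPM in siLINC00152, against 22.6 ± 0.212 CPM in siGL2 (SD, n = 3). GFPT1, which opens the hexosamine pathway, rose by 0.68 ± 0.04, at 212 ± 4.02 CPM in siLINC00152 and 132 ± 3.45 CPM in siGL2. The related and more abundant GFPT2 fell by 0.22 ± 0.04, at 456 ± 17.1 CPM in siLINC00152 and 531 ± 8.25 CPM in siGL2 (SD, n = 3). The mitochondrial aspartate aminotransferase gene GOT2 fell by 0.56 ± 0.04. GPT, alanine aminotransferase, was called at 1.08 ± 0.37 from 0.428 ± 0.201 CPM in siLINC00152 and 0.201 ± 0.0141 CPM in siGL2 (SD, n = 3), and not without siLINC00152 replicate C (0.63) or with DESeq2 (1.09).

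Of 7 tested arginine enzymes, 2 rose and 4 fell, with a median log2 fold change of −0.12. ASS1, argininosuccinate synthase, which lets cells make arginine, fell by 1.498 ± 0.06 (SE), to 16.2 ± 0.910 CPM in siLINC00152, against 45.9 ± 1.69 CPM in siGL2 (SD, n = 3). The nitric oxide synthase gene NOS1 fell by 1.62 ± 0.14, and ASL and ARG2 rose by 0.40 ± 0.05 and 0.45 ± 0.08. ARG2 shares 31.5% and ASL 13.5% of their 75-base stretches with other genes.

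Of 10 tested genes of cystine use and glutathione turnover, 4 rose and 5 fell, with a median of −0.01. The catalytic and modifier subunits of glutamate-cysteine ligase moved apart, with GCLC higher (log2 fold change 0.29 ± 0.05) and GCLM lower (−0.53 ± 0.05, SE). CHAC2, which degrades glutathione, fell by 0.80 ± 0.08 and glutathione reductase, GSR, by 0.31 ± 0.04. Of 8 genes of branched-chain amino acid breakdown, 3 rose and 2 fell, with a median of 0.04. The cytosolic aminotransferase gene BCAT1 rose by 0.67 ± 0.04, BCAT2 by 0.43 ± 0.06 and BCKDHA by 0.31 ± 0.05, and DLD fell by 0.39 ± 0.05. BCKDHA shares 54.1% of its 75-base stretches with other genes.

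Factors known to act on transporter genes or proteins were higher in 11 and lower in 6 of 22 tested, with a median of 0.13. The transcription factor gene KLF4 rose by 1.74 ± 0.05 (SE), the ubiquitin ligase gene NEDD4 by 0.73 ± 0.05, MYC by 0.51 ± 0.05 and ARL6IP5, whose product restrains SLC1A1 in rodents, by 0.64 ± 0.05. The genes called lower included MITF (−0.53 ± 0.07) and TFE3 (−0.25 ± 0.04). TFEB, named above for the E-box, did not pass (0.08 ± 0.12, edgeR adjusted p = 0.567). It stood at 3.01 ± 0.0681 CPM in siLINC00152 and 2.85 ± 0.189 CPM in siGL2 (SD, n = 3). MARCH1, a membrane-bound ubiquitin ligase gene, was called at 1.85 ± 0.34 from 0.519 ± 0.123 CPM in siLINC00152 and 0.141 ± 0.0270 CPM in siGL2 (SD, n = 3). The edgeR adjusted p of the called list genes named here was 0.014 or lower. These lists were described by counts beside the 64.3% of all genes called.

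**Figure D5:**
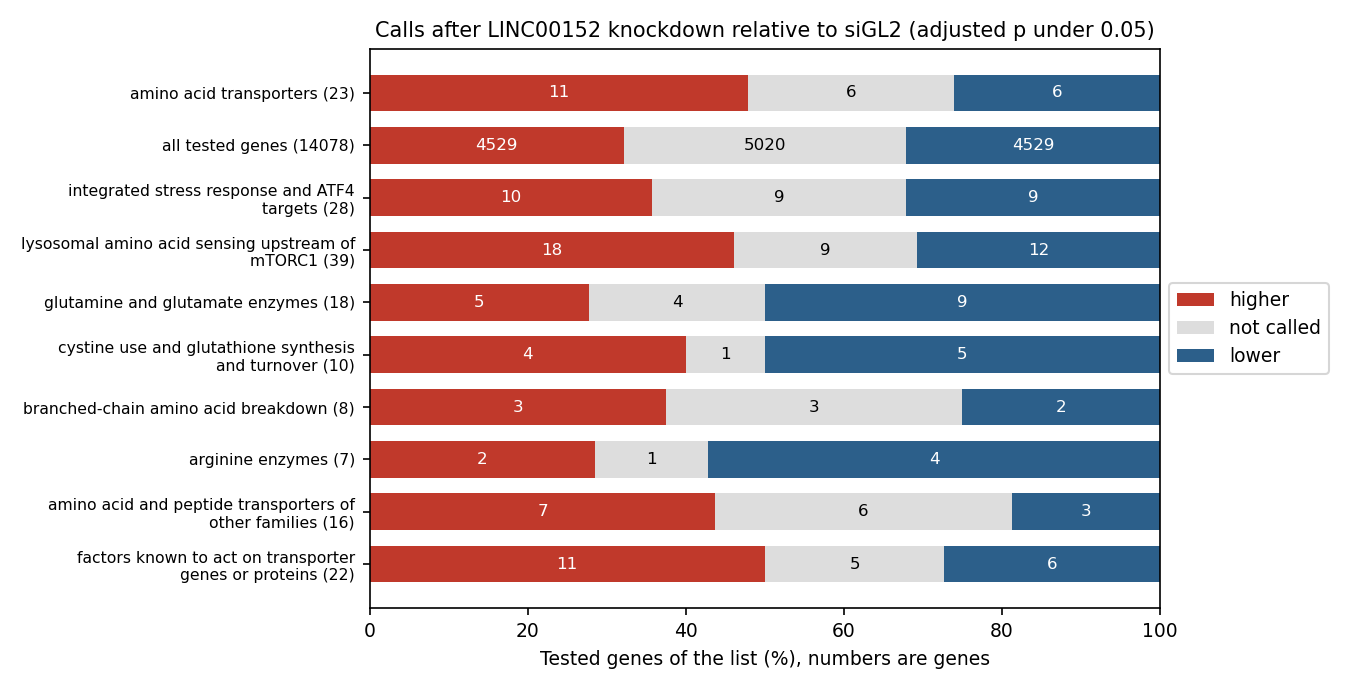
Percent of tested genes (horizontal axis, numbers on the bars are genes) called higher (red), not called (grey) and called lower (blue) in siLINC00152 relative to siGL2 at an adjusted p under 0.05, for the amino acid transporters, all tested genes and 8 lists around amino acid use. Of the transporters 11 were higher and 6 lower of 23, and of all tested genes 4529 were higher and 4529 lower of 14078.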

How the data were processed

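PolyA RNA was measured in 6 libraries, grouped by title. The authors deposited unscaled counts, 1 whole number for each gene symbol. Per the submitters' processing notes, HISAT, HTSeq, DESeq and bcl2fastq were used, with build hg38. They state neither the annotation nor how strand and multiply matching reads were handled. Software was edgeR 4.0.16 with DESeq2 1.42.0 as an alternative (R 4.3.3), and scipy 1.17.1 (Python 3.11.15). filterByExpr kept genes at a minimum count of 10 and a total of 15, and counts were scaled by TMM (factors 0.975 to 1.03). Groups were compared over all genes by edgeR's robust quasi-likelihood test without covariates, Benjamini-Hochberg adjusted, two-sided. The SE is the size of the log2 fold change over the square root of F. Chi-square per degree of freedom between replicates was 3.03 to 14.5, so no pair agreed within sampling noise. Exon lengths, coordinates and shared 75-base stretches come from GENCODE release 29 (GRCh38), which matched 40 of 40 transporters. FPKM was computed from exon lengths. The edgeR step was tested on simulated data.

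The transporters and lists were chosen with earlier results of these data known. Every transporter is named. In each list up to 4 called genes with the smallest p, and called genes of at least 2-fold, were named. ASNS, ATF4, SLC7A6OS, PQLC2, SLC15A3, GFPT2, CTNS, CASTOR2, MITF, TFE3 and TFEB were named outside this rule after their values were seen. A gene that the rule names is not reported here. Roles were assigned from general knowledge.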

Additional observations from a re-analysis of the deposited data

How the results depend on the processing

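Of 23 tested transporters, 13 kept direction and side of the threshold under all 13 alternatives, which varied scaling, filter, tool, replicate block and library left out, and 10 changed in at least 1. The count called higher was 11 in the report, 7 with library size alone and 7 to 13 when 1 library was left out. The count called lower was 6 in the report and 5 to 7 over all alternatives, where SLC7A7, outside the 23, is counted in 3 of them. Over all genes, library size alone called 3755 higher and 5389 lower, and DESeq2 4249 and 4187. The cause of these changes was not tested. SLC1A2 ran from −0.0089 to 0.32 and SLC3A2 from −0.082 to 0.044 with 1 library left out. ASNS was −0.062 with library size alone, −0.012 with upper-quartile factors, −0.0038 with at least 1 CPM in 3 libraries, and −0.016 to 0.030 with 1 library left out. With the replicate block, 4571 genes were higher and 4584 lower, and all 23 transporters kept their call (11 higher, 6 lower). Deviations of libraries with the same letter correlated at 0.08 (A), −0.01 (B) and 0.07 (C), and those with different letters at −0.10 to 0.04. The values for A and C were the highest of these, but all were small. The letters were not taken to pair the samples. Levels and ratios per longest transcript, an alternative chosen after seeing the data, kept the direction between groups of all 5 ratios. Depth limits the 17 untested genes, which had at most 14 counts, and the 5 tested genes under 10 CPM.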
